A study of Homo sapiens with 18 samples.

Results

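The lung lineage transcription factors described here are 10 genes, NKX2-1, FOXA1, FOXA2, GATA6, SOX2, SOX9, CEBPA, HOPX, FOXJ1 and TP63. They were taken by name, through their Ensembl identifiers, from the 60849 genes counted in the series, and all 10 were listed for each of the 18 libraries. The series measured gene-level counts in HCC827 and in NCI-H1975 (H1975 below), established human lung adenocarcinoma cell lines. Neither line was treated. Each line gave 3 independent samples, and every sample was sequenced with Illumina short reads, with Oxford Nanopore (ONT) long cDNA reads and with PacBio Iso-Seq, so that 6 groups of 3 libraries were available. The groups were HCC827 on Illumina, ONT and PacBio, and H1975 on Illumina, ONT and PacBio. Each group stands for cultures of 1 line, so a difference between the groups is a difference between these 2 lines and the spread is that between cultures of a line.

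These genes encode DNA-binding regulators, with HOPX an atypical homeodomain protein that does not itself bind DNA, and they are used in combination by the lung epithelium. NKX2-1 marks the lung endoderm and drives surfactant genes in alveolar type 2 cells, together with the forkhead pioneer factors FOXA1 and FOXA2, with GATA6 and with CEBPA. SOX2 marks the proximal airway and SOX9 the distal tip of the developing lung, TP63 the basal stem cells of the airway and squamous epithelium, FOXJ1 the multiciliated cells and HOPX the alveolar type 1 cells. In lung adenocarcinoma NKX2-1 (also called TTF-1) is a diagnostic marker of the alveolar lineage, whereas TP63 is used to recognise squamous tumours.

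Gene totals lay between 81467393 and 116497461 counts in ONT libraries and between 37795 and 54339 in PacBio libraries. Illumina totals reached 40200473, and the lowest was 10020699, in HCC827 replicate 2. A test could be run on 25711 genes in Illumina and 27366 in ONT, of which 74.1% and 62.7% were called different between the lines by edgeR at an adjusted p below 0.05, whereas 901 genes could be tested in PacBio and 22.9% were called. In ONT, HCC827 replicate 2 stood apart from the other HCC827 libraries, with a mean chi-square per gene of 104 and 115.5 against replicates 1 and 3, compared with 49.4 between those 2. The epithelial markers EPCAM, KRT8, KRT18, KRT19 and CDH1 summed to between 7725 and 12340 CPM in the HCC827 Illumina libraries and to between 2376 and 2568 CPM in those of H1975. CPM are counts scaled to the effective library size, and levels are comparable within a platform only. Marker sets of fibroblasts, blood cells and endothelium (5 genes each) summed to at most 0.576, 2.94 and 3.74 CPM in HCC827 Illumina libraries and to at most 3.14, 5.94 and 5.17 CPM in H1975 ones.

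The promoter sequences of 3 factors with a large line difference are shown as examples in which a search for short motifs gave different matches. The counts are per gene and do not show which start was used. They come from the RefSeq promoter table (GRCh38.p14), which gave 9 windows for 7 factors, and only the 250 bases before each start were searched, on both strands. The first is a 30-base stretch of the NKX2-1 window at the second listed start, chr14:36519677-36519706 on the minus strand. Its capitals mark CAAGTG, the core recognised by NKX2-1 itself, 147 bases before the start, and TGTTTAC, the forkhead core recognised by FOXA proteins, 130 bases before it. GENCODE 44 places 137 bases of that window, the ones nearest the start and with them the forkhead core, in an NKX2-1 exon, so they are in part transcribed sequence. The others are the SOX2 window, chr3:181711675-181711924 on the plus strand, and the TP63 window, chr3:189631139-189631388 on the plus strand. SOX2 and TP63 lie on the same chromosome and differed between the lines in opposite directions. In both windows the capitals mark the CCAAT box or its reverse complement, and in the TP63 window also the NKX2-1 core.
NKX2-1: tgaCAAGTGaaacttaaaggTGTTTACctt
SOX2: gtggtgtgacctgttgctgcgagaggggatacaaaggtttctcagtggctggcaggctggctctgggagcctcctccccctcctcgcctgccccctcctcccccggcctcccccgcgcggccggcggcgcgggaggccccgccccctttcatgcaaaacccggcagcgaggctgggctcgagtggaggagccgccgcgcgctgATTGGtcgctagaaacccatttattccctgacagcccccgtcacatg
TP63: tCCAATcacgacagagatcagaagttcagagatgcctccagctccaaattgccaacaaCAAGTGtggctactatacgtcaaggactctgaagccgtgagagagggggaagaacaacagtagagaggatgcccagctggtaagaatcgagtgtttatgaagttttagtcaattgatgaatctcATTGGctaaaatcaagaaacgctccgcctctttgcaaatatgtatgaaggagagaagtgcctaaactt

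Among all 35114 windows of that length in the table, 2.98% held the forkhead core on either strand, 9.5% held the NKX2-1 core and 32.0% held the CCAAT box. The other motifs searched were the TATA box TATAAA, found in 10.7% of windows, the SOX core ACAATG, found in 9.29%, and the GATA core AGATAA, found in 9.17%. The GATA core matched the second NKX2-1 window on the opposite strand, and the TATA box matched the CEBPA window 30 bases before its start. The NKX2-1 core also matched the FOXA1 window and the CCAAT box the GATA6 window. The CEBPA window held 41 CpG dinucleotides and the TP63 window 6, beside a median of 11 over all windows. No motif of the set matched the first NKX2-1 window or either HOPX window. Windows of FOXA2, SOX9 and FOXJ1 were not used here. A match describes the letters of the window and says nothing on binding in these lines.

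HCC827 carried more FOXA1, SOX2, HOPX and NKX2-1 RNA than H1975 and less SOX9, TP63 and FOXA2 RNA, on both Illumina and ONT. In Illumina, 9 of the 10 factors were called (edgeR quasi-likelihood test, Benjamini-Hochberg adjusted over all genes), 5 higher and 4 lower in HCC827, where the background over all tested genes was 74.1% called, 36.1% higher and 38.0% lower. In ONT, 7 of the 10 were called, 4 higher and 3 lower, beside a background of 62.7%, with 31.1% higher and 31.6% lower. The share of factors called is thus close to that of genes at large. In bulk RNA, fewer cells that express a gene and less RNA per cell cannot be told apart. The factors had between 16 and 3126 counts in each Illumina library and between 22 and 2281 in each ONT library, and all 10 passed the filter on low counts on both platforms.

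**Figure D1:**
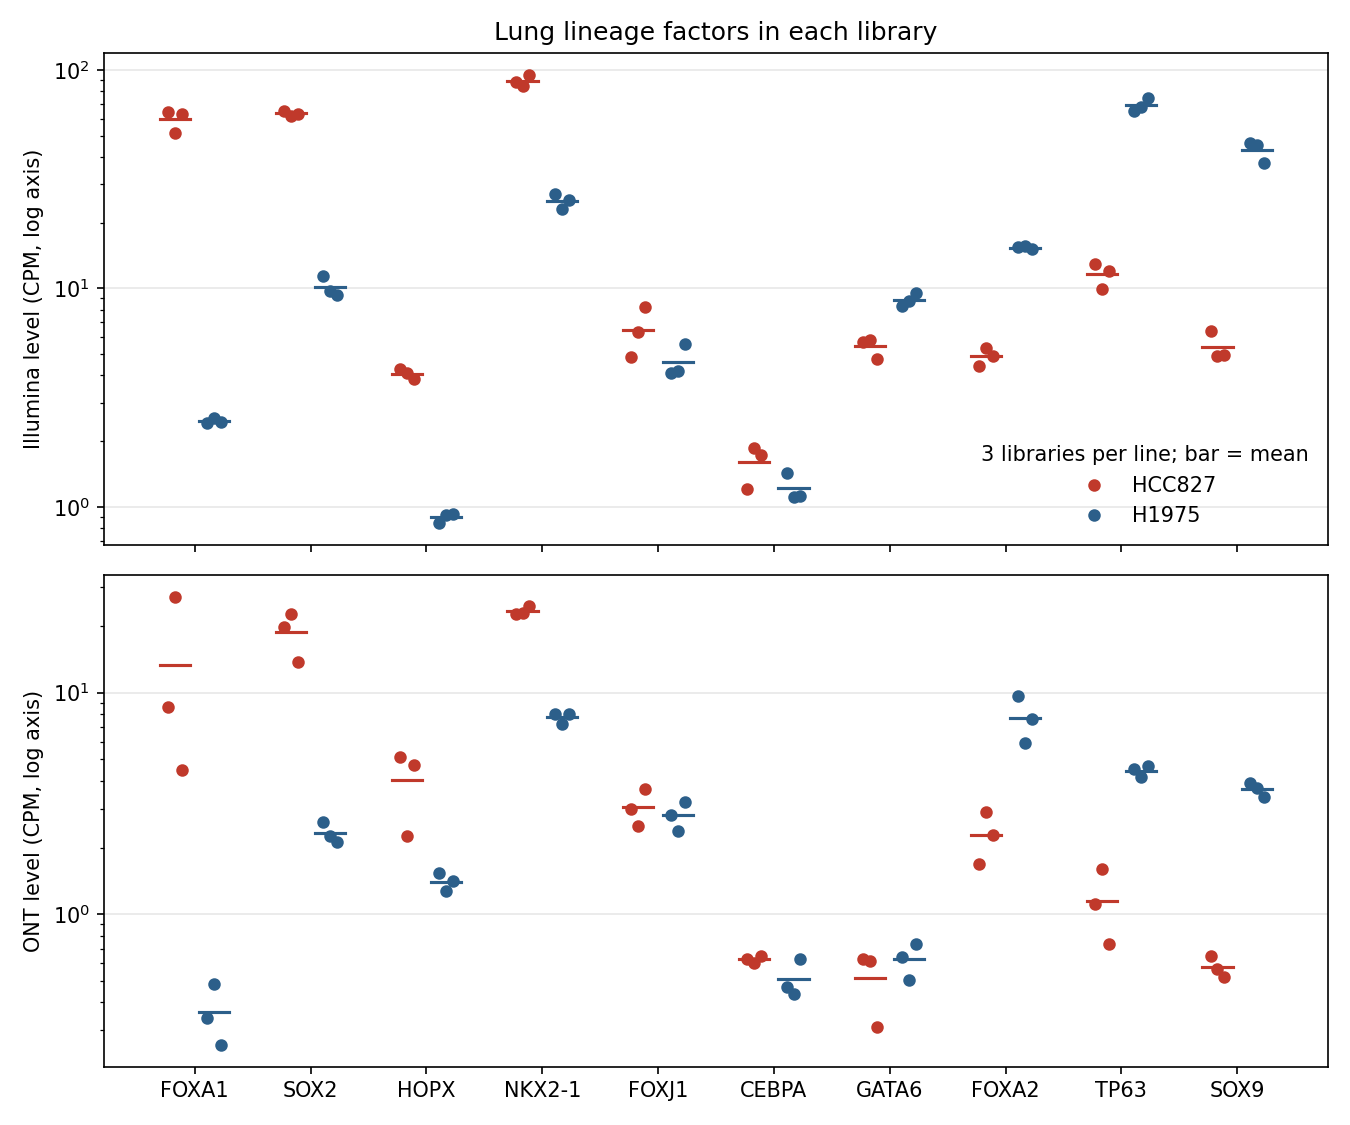
Level of each factor in each library in CPM on a log axis, Illumina above and ONT below, HCC827 in red left of H1975 in blue, with a bar at the mean of 3 libraries. Factors run from the largest Illumina excess in HCC827 (FOXA1) to the largest deficit (SOX9), and the points of the 2 lines meet or cross in Illumina only for FOXJ1 and CEBPA.

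NKX2-1 (ENSG00000136352, chr14:36516392-36521149, minus strand), the lung endoderm and alveolar master regulator, had 88.7, 84.8 and 94.7 CPM in the HCC827 Illumina libraries, against 27.0, 23.2 and 25.3 CPM in H1975. Every HCC827 library lay above every H1975 library. The Illumina log2 fold of HCC827 over H1975 was 1.83 ± 0.10 (standard error), a 3.56-fold difference (edgeR adjusted p = 7.78e-10). On ONT the gene had 22.6, 22.99 and 24.6 CPM in HCC827 and 8.03, 7.20 and 8.05 CPM in H1975, again without overlap, and the log2 fold was 1.59 ± 0.14 (edgeR adjusted p = 3.36e-06). The NKX2-1 transcript was thus present well above the low-count filter in both lines, and in H1975 Illumina libraries only SOX9 and TP63 stood above it per kilobase.

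FOXA1 (ENSG00000129514, chr14:37589552-37596059, minus strand), a forkhead pioneer factor that opens chromatin in endoderm, showed the widest separation of the 10. It had 64.3, 51.6 and 63.2 CPM in the HCC827 Illumina libraries, against 2.41, 2.55 and 2.44 CPM in H1975. The lines were far apart relative to the spread within each, and the log2 fold was 4.60 ± 0.12, or 24.3-fold (edgeR adjusted p = 1.02e-12). On ONT the HCC827 libraries had 8.60, 27.0 and 4.46 CPM and the H1975 libraries 0.342, 0.487 and 0.258 CPM. All HCC827 libraries were above all H1975 libraries, but replicate 2 of HCC827 alone was several times the other HCC827 libraries. The ONT log2 fold was 5.20 ± 0.67 (edgeR adjusted p = 0.000115) and 4.20 ± 0.29 without that library (adjusted p = 1.9e-07). In Illumina the library from that same RNA sample was the lowest of the 3 for FOXA1.

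FOXA2 (ENSG00000125798, chr20:22580998-22585455, minus strand), the close paralogue of FOXA1 with overlapping function in lung endoderm, differed the other way. The HCC827 Illumina libraries had 4.43, 5.36 and 4.91 CPM, against 15.4, 15.6 and 15.1 CPM in H1975. The groups did not overlap, and FOXA2 was lower in HCC827 by a log2 fold of -1.68 ± 0.12 (edgeR adjusted p = 1.04e-08). On ONT it had 1.68, 2.88 and 2.29 CPM in HCC827 and 9.65, 5.92 and 7.59 CPM in H1975, with a log2 fold of -1.76 ± 0.24 (edgeR adjusted p = 8.36e-05). FOXA1 was the more abundant of the pair in HCC827 and FOXA2 in H1975. Per kilobase of exon, FOXA1 stood at 8.93, 5.93 and 7.94 times FOXA2 in the HCC827 Illumina libraries and at 0.0964, 0.100 and 0.0996 times FOXA2 in the H1975 ones. The log2 ratio of FOXA1 over FOXA2 averaged 2.90 ± 0.30 in HCC827 and -3.34 ± 0.03 in H1975 on Illumina, and 1.48 ± 1.14 in HCC827 and -5.13 ± 0.72 in H1975 on ONT (SD, n = 3 each).

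GATA6 (ENSG00000141448, chr18:22169589-22202528, plus strand), a zinc-finger factor of lung endoderm and of alveolar differentiation, had 5.67, 5.83 and 4.77 CPM in HCC827 Illumina libraries, against 8.35, 8.75 and 9.57 CPM in H1975. HCC827 was lower without overlap, by a log2 fold of -0.73 ± 0.13 (edgeR adjusted p = 0.00011). On ONT the values were 0.625, 0.615 and 0.310 CPM in HCC827 and 0.638, 0.507 and 0.735 CPM in H1975. Those groups overlapped, the log2 fold was -0.26 ± 0.29, and the difference was not called (edgeR adjusted p = 0.447). HCC827 replicate 3 was the lowest ONT library, with 22 counts, and without it the ONT log2 fold was -0.01 ± 0.24.

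SOX2 (ENSG00000181449, chr3:181711925-181714436, plus strand), the proximal airway factor, had 65.2, 62.0 and 63.3 CPM in the HCC827 Illumina libraries, against 11.4, 9.70 and 9.33 CPM in H1975. The HCC827 libraries were close to one another and all far above H1975, with a log2 fold of 2.65 ± 0.10, or 6.27-fold (edgeR adjusted p = 3.49e-11). On ONT it had 19.8, 22.7 and 13.7 CPM in HCC827 and 2.60, 2.25 and 2.12 CPM in H1975. The ONT groups did not overlap either, and the log2 fold was 3.01 ± 0.21 (edgeR adjusted p = 7.94e-07).

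SOX9 (ENSG00000125398, chr17:72121020-72126416, plus strand), the distal tip progenitor factor, had the largest deficit in HCC827. It had 6.39, 4.90 and 4.97 CPM in the HCC827 Illumina libraries, against 46.6, 45.6 and 37.6 CPM in H1975. The lowest H1975 library was several times the highest HCC827 library. The log2 fold was -2.96 ± 0.13, that is 7.79-fold higher in H1975 (edgeR adjusted p = 1.39e-10). On ONT SOX9 had 0.646, 0.568 and 0.522 CPM in HCC827 and 3.90, 3.71 and 3.39 CPM in H1975, a log2 fold of -2.66 ± 0.18 (edgeR adjusted p = 8e-07). Of this pair SOX2 was the more abundant in HCC827 on both platforms and SOX9 in H1975 on Illumina. Per kilobase of exon, SOX2 was 15.9, 19.8 and 19.9 times SOX9 in HCC827 Illumina libraries and 0.382, 0.333 and 0.388 times SOX9 in H1975 ones. On ONT that log2 ratio averaged 5.64 ± 0.31 in HCC827 and -0.016 ± 0.069 in H1975 (SD, n = 3 each). Per kilobase, neither gene thus led in every H1975 ONT library. In CPM, which are not divided by length, SOX9 stood above SOX2 in each H1975 ONT library. The log2 ratio of SOX2 over SOX9 was 5.65 higher in HCC827 than in H1975 on either platform.

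CEBPA (ENSG00000245848, chr19:33299934-33302534, minus strand), a bZIP factor of alveolar type 2 maturation, was low in both lines. It had 1.21, 1.86 and 1.73 CPM in HCC827 Illumina libraries, against 1.42, 1.11 and 1.12 CPM in H1975. These groups overlapped, and the log2 fold of 0.32 ± 0.22 was not called (edgeR adjusted p = 0.204). Leaving out HCC827 replicate 1, the lowest HCC827 library, gave 0.55 ± 0.24, which was called (adjusted p = 0.049). On ONT it had 0.625, 0.603 and 0.649 CPM in HCC827 and 0.468, 0.436 and 0.626 CPM in H1975, and the log2 fold of 0.30 ± 0.23 was not called (edgeR adjusted p = 0.282). CEBPA had between 16 and 63 counts per library on the 2 platforms, which limits the size of difference that could be seen.

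HOPX (ENSG00000171476, chr4:56647989-56681877, minus strand), the alveolar type 1 homeodomain cofactor, had 4.26, 4.08 and 3.86 CPM in HCC827 Illumina libraries, against 0.845, 0.914 and 0.930 CPM in H1975. The groups were well apart, with a log2 fold of 2.18 ± 0.17, or 4.52-fold (edgeR adjusted p = 2.96e-08). On ONT it had 5.14, 2.25 and 4.73 CPM in HCC827 and 1.54, 1.27 and 1.41 CPM in H1975. HCC827 replicate 2 was the lowest of its group yet still above all H1975 libraries, and the log2 fold was 1.52 ± 0.28 (edgeR adjusted p = 0.000711).

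FOXJ1 (ENSG00000129654, chr17:76136333-76141245, minus strand), the master regulator of motile cilia, had 4.84, 6.29 and 8.22 CPM in HCC827 Illumina libraries, against 4.08, 4.20 and 5.55 CPM in H1975. The lowest HCC827 library lay below the highest H1975 library. The log2 fold of 0.49 ± 0.19 passed the threshold (edgeR adjusted p = 0.0304). The call did not hold without HCC827 replicate 3, the highest library (0.19, adjusted p = 0.368), without HCC827 replicate 2 (0.51, adjusted p = 0.0699), without H1975 replicate 1 (0.40, adjusted p = 0.107) or without H1975 replicate 2 (0.42, adjusted p = 0.0794). The header of HCC827 Illumina replicate 3 alone names a repeat run, whose part in the result was not tested. On ONT FOXJ1 had 2.97, 2.49 and 3.67 CPM in HCC827 and 2.80, 2.37 and 3.23 CPM in H1975, overlapping groups with a log2 fold of 0.12 ± 0.19 that was not called (edgeR adjusted p = 0.612).

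TP63 (ENSG00000073282, chr3:189631389-189897276, plus strand), the p53-family factor of basal cells, was a high factor of H1975. It had 12.9, 9.91 and 12.0 CPM in HCC827 Illumina libraries, against 65.3, 68.0 and 75.0 CPM in H1975. No library of HCC827 came near one of H1975, and the log2 fold was -2.54 ± 0.11, 5.84-fold higher in H1975 (edgeR adjusted p = 1.2e-10). On ONT it had 1.11, 1.60 and 0.734 CPM in HCC827 and 4.54, 4.18 and 4.65 CPM in H1975, with a log2 fold of -1.95 ± 0.24 (edgeR adjusted p = 5.07e-05). TP63 was also the one factor with more than 3 counts in a PacBio library.

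**Figure D2:**
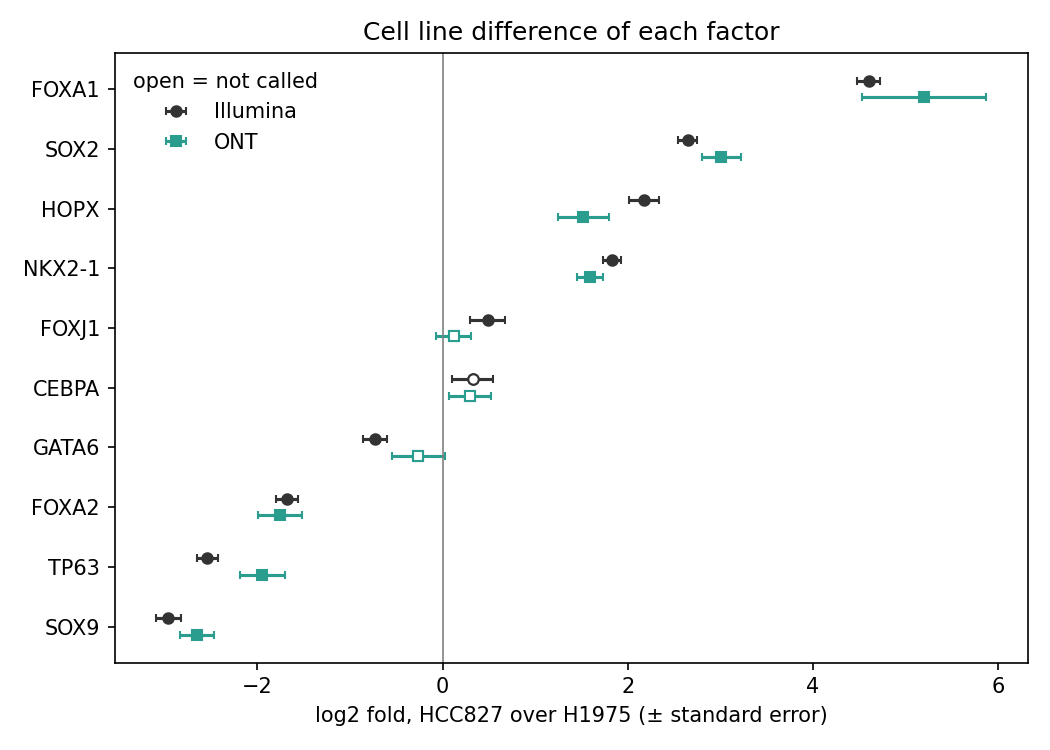
Log2 fold of HCC827 over H1975 for each factor with its standard error, Illumina as black circles and ONT as green squares, open where the difference was not called. The fold had the same sign on both platforms for all 10 factors, called or not, from 4.60 (Illumina) and 5.20 (ONT) for FOXA1 to -2.96 and -2.66 for SOX9, and the open symbols are CEBPA on both platforms and GATA6 and FOXJ1 on ONT.

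The difference between the platforms in these folds was tested directly, on the 12 Illumina and ONT libraries. None of the 10 factors was called (edgeR interaction term), where 7.16% of 29395 tested genes were (5.03% with the ONT fold above and 2.13% with it below). The factors with the lowest p were TP63, SOX2 and SOX9. Their ONT fold minus Illumina fold on the log2 scale was 0.77 ± 0.26 for TP63 (edgeR adjusted p = 0.0936). It was 0.52 ± 0.23 for SOX2 (edgeR adjusted p = 0.206) and 0.48 ± 0.23 for SOX9 (edgeR adjusted p = 0.246). The median of this difference over all tested genes was 0.11, so each stands against a general offset of that size. For GATA6, called in Illumina and not in ONT, the difference was 0.63 ± 0.31 (edgeR adjusted p = 0.27), and for FOXJ1, likewise called in Illumina alone, it was -0.21 ± 0.29 (edgeR adjusted p = 0.756). FOXA1 gave 0.76 ± 0.87 with all libraries and -0.26 without HCC827 ONT replicate 2. The platforms differ in RNA input, library chemistry and read length together, so what sets a difference between them cannot be told apart.

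In PacBio none of the 10 factors passed the low-count filter, and the comparison there is of a few counts. Per the file headers these are counts of clustered sequences, not of single reads. TP63 had 1, 0 and 0 counts in the HCC827 libraries and 5, 7 and 7 in the H1975 libraries. Scaled to the PacBio gene totals of 133044 for HCC827 and 144651 for H1975, that is 17.5 times more in H1975, with an exact 95% Clopper-Pearson interval from 2.78 to 726 that covers counting error only. PacBio counts of HCC827 replicates 1 and 2, and of H1975 replicates 2 and 3, differed by less than the sampling noise (mean chi-square per gene 0.671 and 0.550). With 1 library of each such pair the TP63 counts were 1 in HCC827 and 12 in H1975, a ratio of 11.7 with an interval from 1.73 to 501. NKX2-1 had 0, 3 and 1 counts in HCC827 and 0 in each H1975 library. Against a floor of 3 counts over the group that is 1.45-fold higher in HCC827, without the counting error of the HCC827 counts. So few counts do not establish a difference, and taking 1 library of each pair left 1 count. FOXA1 had 1, 0 and 1 counts in HCC827 and SOX2 0, 2 and 0, with 0 in each H1975 library for either gene. FOXJ1 had 1 count in each HCC827 library and 1, 0 and 1 in H1975. FOXA2, GATA6, SOX9, CEBPA and HOPX had 0 counts in all PacBio libraries, which allows up to 22.6 CPM in HCC827 and 20.7 CPM in H1975.

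Ranked by Illumina CPM per kilobase of exon, the leading factors of the lines were different genes. In HCC827 NKX2-1 led with 28.2 ± 1.6, followed by SOX2 with 25.3 ± 0.6 and FOXA1 with 13.5 ± 1.6 (SD, n = 3), each above the next in every library. The next 5, FOXJ1 (2.49), FOXA2 (1.80), TP63 (1.56), GATA6 (1.43) and SOX9 (1.38), overlapped their neighbours in the order, and CEBPA (0.615) and HOPX (0.526) came last. In H1975 SOX9 with 11.0 ± 1.2 and TP63 with 9.28 ± 0.66 led and overlapped, followed by NKX2-1 with 7.96 ± 0.61, FOXA2 with 5.66 ± 0.09 and SOX2 with 4.03 ± 0.43, each above the next in every library. GATA6 (2.34) and FOXJ1 (1.78) came next, then FOXA1 (0.559) and CEBPA (0.468), which overlapped, and HOPX (0.116). On ONT the top of the order in HCC827 was SOX2 (7.46 CPM per kilobase) and NKX2-1 (7.39), which overlapped, and in H1975 FOXA2 (2.84) and NKX2-1 (2.45), which also overlapped. SOX9 and TP63 ranked lower in H1975 on ONT, at 0.932 and 0.596 CPM per kilobase. The ONT order depended on the division by exon length. In H1975 ONT CPM without it, TP63 (4.45) and SOX9 (3.67) followed NKX2-1 (7.76) and FOXA2 (7.72). They stood above FOXJ1 (2.80) and SOX2 (2.32). Read capture along a transcript differs between the platforms, and its part in that order was not tested.

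Several factors share their locus with another transcribed gene, and the sources used here do not state the strand setting of the counting. SOX9-AS1 spans SOX9 on the opposite strand with no exonic base in common in GENCODE 44, yet its counts were 104% to 107% of those of SOX9 in the HCC827 Illumina libraries and 101% to 102% in the H1975 ones. SOX2-OT, which contains SOX2 on the same strand, had 106% to 107% of the SOX2 counts in HCC827 and 138% to 151% in H1975 Illumina libraries. SFTA3 (ENSG00000257520), which shares 1033 exonic bases and the strand with NKX2-1, had 120% to 128% of the NKX2-1 counts in HCC827 and 143% to 152% in H1975. On ONT the shares were 142% to 158% in HCC827 and 118% to 125% in H1975 for SOX9-AS1, 117% to 124% in HCC827 and 246% to 301% in H1975 for SOX2-OT, and 125% to 132% in HCC827 and 182% to 185% in H1975 for SFTA3. How many reads were counted for both genes of a pair was not tested, so the counts of the factor and of its partner are uncertain to that extent. The partners' log2 folds ran with the factor's, at -2.91 ± 0.13 in Illumina and -2.34 ± 0.17 in ONT for SOX9-AS1, at 2.24 ± 0.10 and 1.85 ± 0.18 for SOX2-OT, and at 1.60 ± 0.10 and 1.08 ± 0.14 for SFTA3. The platform difference was called for SOX9-AS1 (0.74 ± 0.21, edgeR adjusted p = 0.0363) and not for SOX2-OT or SFTA3. NKX2-1-AS1, antisense to NKX2-1 with 402 shared exonic bases, was higher in HCC827 by 2.01 ± 0.12 in Illumina and 0.90 ± 0.25 in ONT. CEBPA shares 659 and 482 of its 2601 exonic bases with long noncoding RNA genes on the opposite strand. GATA6 shares 321 exonic bases with another such gene and 94 with GATA6-AS1. The counts of CEBPA and GATA6 carry the same uncertainty, and its size was not tested.

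**Figure D3:**
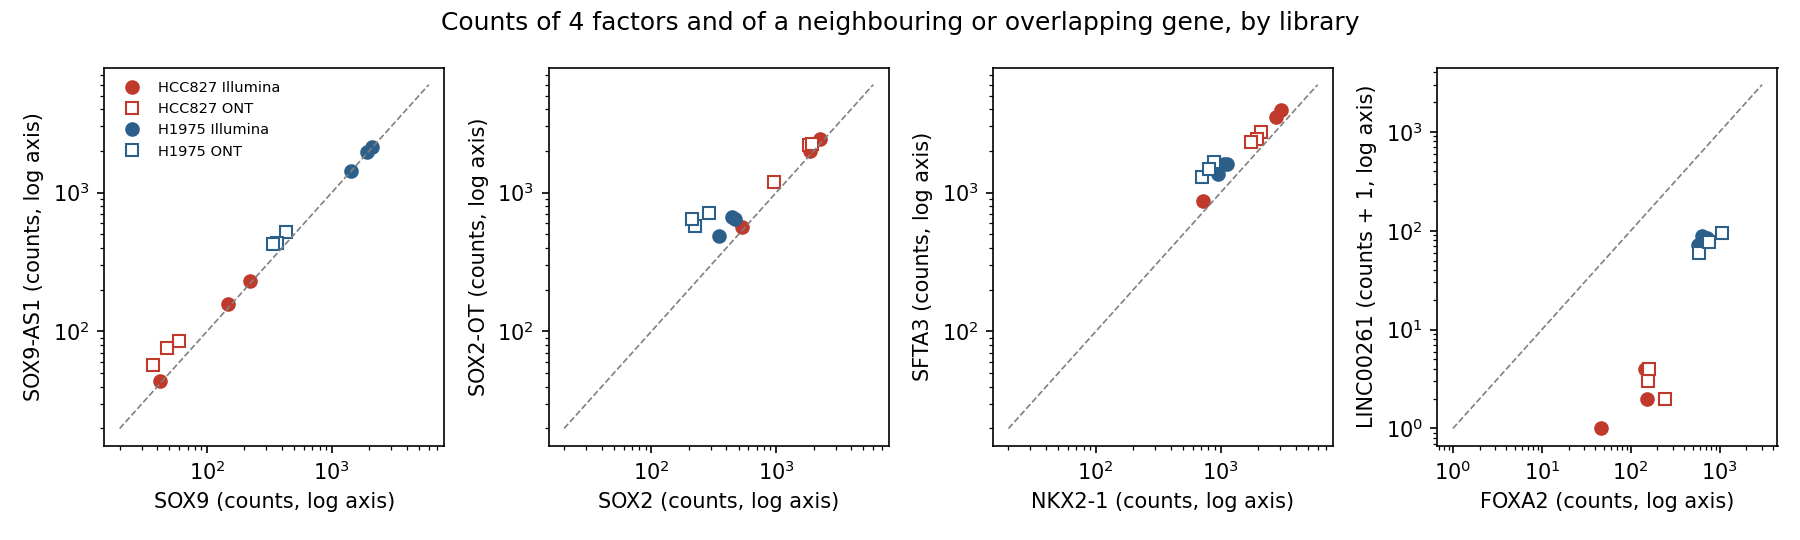
Raw counts per library of SOX9, SOX2, NKX2-1 and FOXA2 (x axis) against a gene that overlaps or adjoins each (y axis, log axes), HCC827 in red and H1975 in blue, Illumina filled and ONT open, with a dashed line of equal counts. SOX9-AS1 follows SOX9 along that line in Illumina, while LINC00261 (plotted as counts plus 1) stays near 0 in HCC827 and reaches 71 to 87 counts in the H1975 Illumina libraries.

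LINC00261, a long noncoding RNA next to FOXA2 with which it shares no base, was also lower in HCC827. Its Illumina counts were 1, 0 and 3 in HCC827, against 87, 83 and 71 in H1975, a log2 fold of -5.04 ± 0.40 (edgeR adjusted p = 4.77e-08). On ONT they were 2, 1 and 3 in HCC827 and 94, 58 and 76 in H1975, a log2 fold of -4.84 ± 0.41 (edgeR adjusted p = 3.14e-06). TTC6, which overlaps the FOXA1 start on the opposite strand with 16 shared exonic bases, was higher in HCC827 by 2.75 ± 0.20 in Illumina and 1.77 ± 0.20 in ONT. Next to CEBPA, the divergent transcript CEBPA-DT was lower in HCC827 in Illumina (-2.75 ± 0.56, edgeR adjusted p = 0.000481) although CEBPA itself was not called. GATA6-AS1, which shares 94 exonic bases with GATA6 on the opposite strand, was lower too (-1.35 ± 0.50, edgeR adjusted p = 0.026). It had 11 Illumina counts in HCC827 and 49 in H1975, and how many reads were counted for both genes was not tested. Neither CEBPA-DT nor GATA6-AS1 passed the filter on ONT.

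Protein-coding neighbours did not follow a single pattern. Within 500 kb of NKX2-1, 5 coding genes passed the filter and all 5 were higher in HCC827 in Illumina, with log2 folds between 0.45 and 1.60, the largest being the overlapping SFTA3, where 36.1% of all tested genes were higher. The smallest, of the homeobox gene NKX2-8 (edgeR adjusted p = 0.024), was not called by DESeq2 (adjusted p = 0.0524) or by edgeR without H1975 replicate 1 (adjusted p = 0.0648) or without H1975 replicate 2 (adjusted p = 0.147). On ONT, 3 of these 5 were called, each higher. Around TP63, the collagen-modifying enzyme gene P3H2 was lower in HCC827 too, at -3.10 ± 0.11 in Illumina and -2.69 ± 0.22 in ONT, while TPRG1 on the other side was higher in HCC827 at 1.50 ± 0.14 and 1.08 ± 0.16. Of the 4 tested genes near TP63, 3 were lower and 1 higher in Illumina. No tested coding gene lay within 500 kb of SOX2 or SOX9. FOXJ1 sits in a dense region, where 21 of 34 tested genes were higher and 5 lower in Illumina with a median log2 fold of 0.64, beside 36.1% higher, 38.0% lower and a median of -0.04 over all tested genes. Its nearest neighbour RNF157 was higher at 3.01 ± 0.13 in Illumina and 0.81 ± 0.13 in ONT. That platform difference was called (-2.05 ± 0.18, edgeR adjusted p = 5.66e-07). CEBPG, a bZIP relative beside CEBPA, was lower in HCC827 at -0.47 ± 0.12 in Illumina and -0.80 ± 0.19 in ONT. LRP3, the nearest tested coding gene on the other side of CEBPA, was lower at -4.45 ± 0.18 and -3.28 ± 0.33. Of 9 tested genes within 500 kb of CEBPA, 6 were higher and 3 lower in Illumina, with a median log2 fold of 0.38.

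Genes of the epithelial programmes that these factors serve were read from the same fits, and each list is set beside the same background of 36.1% higher and 38.0% lower in Illumina and 31.1% higher and 31.6% lower on ONT. In alveolar type 2 cells the programme includes surfactant proteins and lamellar body genes. Of 18 such genes, among which SFTA3 was left unmatched and counts as not tested, 13 passed the filter in Illumina, 8 were called higher in HCC827, 2 lower and 3 not, and the median log2 fold was 1.03, beside -0.04 over all tested genes. On ONT 8 were higher, 1 lower and 4 not called among 13 tested, with a median of 0.94 beside -0.02. SFTPA1, SFTPA2 and SFTA2 could be tested only because HCC827 was high, with 1, 4 and 5 Illumina counts in H1975. These counts of calls and medians therefore support nothing about the list. SFTA2, a surfactant-associated protein gene, averaged 88.0 ± 16.5 CPM in HCC827 and 0.0387 ± 0.0231 CPM in H1975 Illumina libraries (SD, n = 3 each), a log2 fold of 10.97 ± 0.26 (edgeR adjusted p = 5.3e-13). SFTPA1, surfactant protein A, had 132 Illumina counts in HCC827 and 1 in H1975, a ratio of 226 after scaling with an exact 95% interval from 40.0 to 9012. LAMP3, a lamellar body membrane protein gene, was lower in HCC827, at 6.47 ± 0.37 CPM against 27.1 ± 1.8 CPM in H1975 (log2 fold -2.07 ± 0.11, edgeR adjusted p = 7.17e-10). ABCA3, the lamellar body lipid transporter, was lower in HCC827 in Illumina (-0.98 ± 0.09) and higher in ONT (0.94 ± 0.14), and that platform difference was called (edgeR adjusted p = 1.72e-07). SFTPC, the most specific type 2 surfactant gene, had 0 counts in HCC827 and 7 in H1975 over the Illumina libraries and was not tested.

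Alveolar type 1 genes, the programme in which HOPX is active, were mixed. Of 10 genes tested in Illumina, 6 were called higher in HCC827 with 3 lower, with a median log2 fold of 0.51, and of 9 tested on ONT 5 were higher and 3 lower. The water channel gene AQP5 had 1275 Illumina counts in HCC827 and 0 in H1975, 729-fold higher against a floor of 3 counts over the group. AQP5 could be tested only because HCC827 was high, so the counts of calls and the median support nothing about this list. CYP4B1, a cytochrome P450 gene, averaged 8.74 ± 0.74 CPM in HCC827 and 1.32 ± 0.09 CPM in H1975 Illumina libraries (log2 fold 2.73 ± 0.14, edgeR adjusted p = 5.51e-10). On ONT it had 516 counts in HCC827 and 9 in H1975, a log2 fold of 6.12 ± 0.32. That platform difference was called (3.55 ± 0.38, edgeR adjusted p = 5.48e-06). EMP2, a membrane protein gene, and CAV1, which encodes the coat protein of caveolae, were lower in HCC827, at -1.79 ± 0.10 and -1.18 ± 0.10 on the log2 scale in Illumina. On ONT EMP2 was at -1.92 ± 0.16 and CAV1 at -1.39 ± 0.14.

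**Figure D4:**
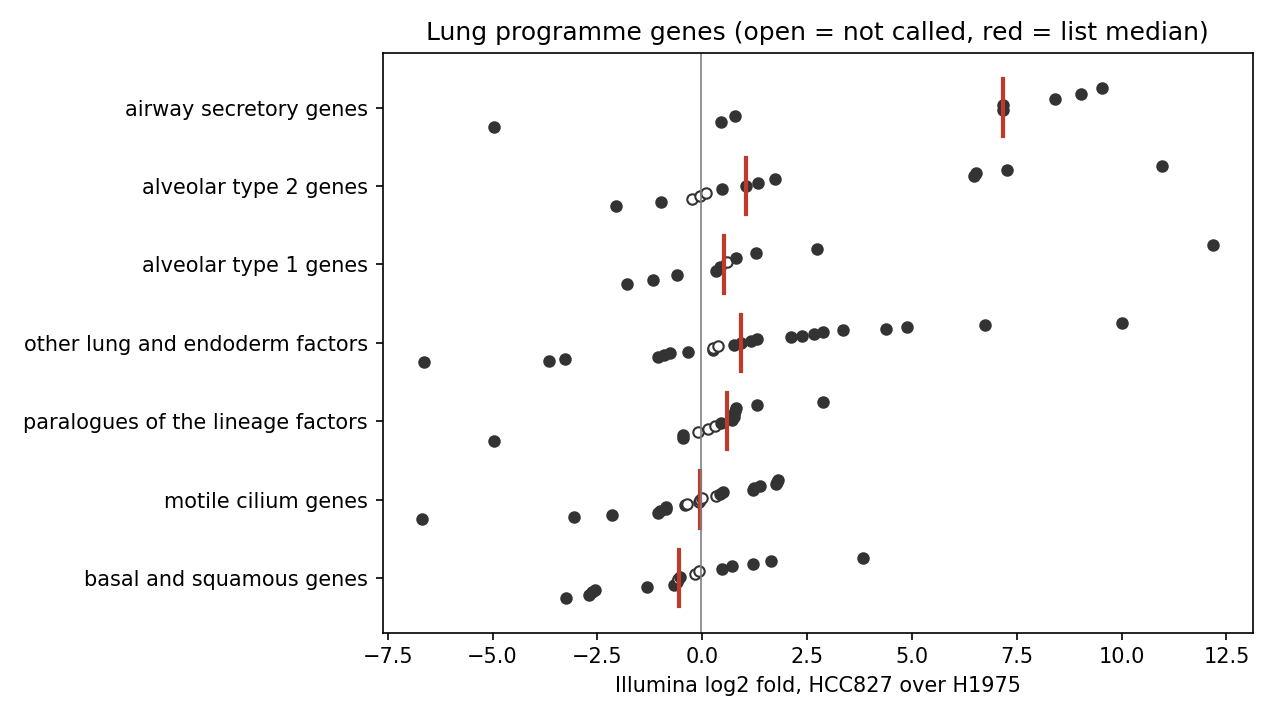
Illumina log2 fold of HCC827 over H1975 for each tested gene of 7 lists, 1 point per gene (vertical position within a list has no meaning), open where not called, with the list median in red and the median of all tested genes as a grey line at -0.04. Tested airway secretory genes, several of which passed the filter through HCC827 alone, have a median of 7.17, and basal and squamous genes spread to both sides of a median of -0.55. The point of AQP5 at the far right, that of TBX3 and that of DYNLRB2 at the far left are fitted values against a line with 0 counts. These genes passed the filter through the other line alone.

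Airway secretory genes, which belong to the SOX2-marked proximal compartment, were examined next. Of 15 genes 8 passed the filter in Illumina and 7 were higher in HCC827, with a median log2 fold of 7.17, and of 7 tested on ONT 6 were higher and 0 lower, with a median of 7.66. Several of them could be tested only because HCC827 was high, such as the secretory regulator SPDEF, with 2033 Illumina counts in HCC827 and 10 in H1975, and PIGR, with 1509 in HCC827 and 17 in H1975, so these counts and medians support nothing about the list. MUC5B, a gel-forming mucin, averaged 964 ± 212 CPM in HCC827 and 1.28 ± 0.30 CPM in H1975 Illumina libraries, a log2 fold of 9.54 ± 0.23 (edgeR adjusted p = 5.48e-13). Its ONT log2 fold was 7.75 ± 0.30, and the platform difference was called (-1.63 ± 0.39, edgeR adjusted p = 0.0138). LCN2, an iron-binding defence protein gene, averaged 881 ± 243 CPM in HCC827 and 1.67 ± 0.53 CPM in H1975 (log2 fold 9.04 ± 0.27, edgeR adjusted p = 2.78e-12). The exception was FOXA3, a further FOXA paralogue, named after its value was seen, with 1 Illumina count in HCC827 and 68 in H1975. The club cell secretoglobin gene SCGB1A1 had 1 Illumina count in HCC827 and 5 in H1975 and was not tested.

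Basal and squamous genes, the programme of TP63, were divided between the lines. Of 23 genes 16 passed the filter in Illumina, and among them 5 were called higher and 8 lower, with a median log2 fold of -0.55, whereas on ONT 7 of 18 tested genes were higher and 6 lower, with a median of 0.23. S100A2, a calcium-binding protein gene of basal keratinocytes, was lower in HCC827, at 10.7 ± 0.7 CPM against 100.3 ± 9.3 CPM in H1975 (log2 fold -3.24 ± 0.11, edgeR adjusted p = 9.71e-12). KRT17, a keratin of basal and stressed epithelium, was lower at -2.69 ± 0.26 in Illumina and -0.82 ± 0.20 in ONT. DSC3, a desmosomal cadherin gene, was higher in HCC827 at 3.84 ± 0.21 in Illumina and 1.54 ± 0.32 in ONT. The platform difference was called for KRT17 (2.02 ± 0.34, edgeR adjusted p = 0.000697) and for DSC3 (-2.14 ± 0.40, edgeR adjusted p = 0.00197). KRT15, a basal keratin, was higher at 1.63 ± 0.14 and 1.60 ± 0.17. The classical basal keratin gene KRT5 had 3 Illumina counts in HCC827 and 14 in H1975, too few to be tested there. On ONT it had 68 counts in HCC827 and 31 in H1975 and was called higher in HCC827, at 1.45 ± 0.37 on the log2 scale (edgeR adjusted p = 0.00542).

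Motile cilium genes, a list that holds structural genes of cilia together with regulators of ciliation such as GMNC and MCIDAS, were divided between the lines. Of 21 genes tested in Illumina, 8 were called higher in HCC827 and another 8 lower, with a median log2 fold of -0.06, and of 23 tested on ONT 7 were higher and 10 lower, with a median of -0.09. DNAH5, an outer dynein arm heavy chain gene, was higher in HCC827 at 59.4 ± 5.0 CPM against 17.03 ± 1.40 CPM in H1975 (log2 fold 1.81 ± 0.10, edgeR adjusted p = 1.61e-09). PIFO, a gene of the ciliary base, was higher at 1.78 ± 0.24 in Illumina and 1.05 ± 0.29 in ONT. CAPS, a calcium-binding protein gene of ciliated cells, was lower at 4.81 ± 0.35 CPM against 40.3 ± 3.0 CPM in H1975 (log2 fold -3.06 ± 0.12, edgeR adjusted p = 2.28e-11). DYNLRB2, a dynein light chain gene, had 0 Illumina counts in HCC827 and 48 in H1975, 9.33-fold lower in HCC827 against a floor of 3 counts. It could be tested only because H1975 was high.

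Paralogues of the 10 factors and other regulators of lung and foregut endoderm were examined in turn. Over all genes tested in Illumina, 36.1% were higher and 38.0% lower, with a median log2 fold of -0.04. Of 28 paralogues 14 passed the filter in Illumina, 8 higher and 3 lower in HCC827, with a median log2 fold of 0.59. GATA3 was higher in HCC827, at 3.16 ± 0.70 CPM against 0.397 ± 0.184 CPM in H1975 (log2 fold 2.88 ± 0.28, edgeR adjusted p = 4.42e-07), opposite in direction to GATA6. SOX4, a SOX factor widely expressed in epithelial tumours, was higher at 1.29 ± 0.13 in Illumina and 1.58 ± 0.21 in ONT. Of 31 other lung and endoderm factors 23 passed the filter in Illumina, 14 higher and 7 lower, with a median of 0.92. Some genes passed the filter through a single line, such as FOXA3 through H1975 and TBX3 through HCC827. The counts of calls and medians of both lists therefore support nothing about them. TBX3, a T-box factor, had 284 Illumina counts in HCC827 and 0 in H1975, 162-fold higher against a floor of 3 counts. IRX3, an Iroquois homeodomain factor, was lower in HCC827, at 0.284 ± 0.061 CPM against 26.6 ± 0.9 CPM in H1975 Illumina libraries (log2 fold -6.65 ± 0.17, edgeR adjusted p = 8.21e-13). Its ONT log2 fold was -5.36 ± 0.28, and the platform difference was called (1.44 ± 0.41, edgeR adjusted p = 0.0365).

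Genes with the pattern most like each factor were found by the root mean square difference in log2 CPM, centred within platform, over the 12 Illumina and ONT libraries and among 15045 protein-coding genes. The closest genes were NOP53 (0.0897) and NIPSNAP2 (0.0923) for NKX2-1, and NR2F1 (0.102) and ZNF845 (0.134) for TP63. For SOX9 they were IL1RAP (0.112) and LBH (0.146), for SOX2 STAU2 (0.149) and MYRF (0.155), and for FOXA2 HERC5 (0.135) and ITGA5 (0.171). HOPX was closest to BHMT2 (0.137) and KCNB2 (0.187). FOXA1 had no close match over these libraries, its nearest genes INHBB and CBY2 lying at 0.401 and 0.403. They include HCC827 ONT replicate 2, where FOXA1 had 27.0 CPM against 8.60 and 4.46 CPM in the other HCC827 ONT libraries. The part of that library in the distance was not tested. For GATA6 (LIMD1, 0.120), CEBPA (B4GAT1, 0.124) and FOXJ1 (CCND3, 0.139) the nearest genes share a small line difference.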

How the data were processed

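Gene expression was measured in 18 libraries of 2 cell lines on 3 platforms. The authors deposited raw counts per gene in a file for each library (for PacBio, of clustered sequences, per the file headers). The submitters' processing notes name minimap2 2.17, featureCounts and GRCh38. The sources used here do not state the strand setting, the treatment of reads in several genes or the annotation release. Per the labels' protocols Illumina libraries used a directional kit, 3.75 ng of mRNA and 11 PCR cycles, ONT libraries 1.5 ng and 14 cycles, and PacBio libraries total RNA and 12 cycles. Synthetic spike-in rows, at most 3.71% of counts, were removed.

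From these counts, edgeR 4.0.16 in R 4.3.3 gave the line difference (HCC827 over H1975) within each platform and the platform interaction. Settings were TMM scaling, the filterByExpr filter on low counts by group, a robust quasi-likelihood fit, two-sided tests and Benjamini-Hochberg adjustment over all tested genes, with calls at an adjusted p below 0.05. Standard errors are the log2 fold divided by the root of its F. Levels are CPM on effective library sizes, comparable within a platform only. Symbols, coordinates and exon lengths came from GENCODE 44, with 60357 of 60617 Illumina identifiers and 58207 of 58676 long-read identifiers matched. SFTA3 (shared by a pair of identifiers) and TP63-AS1 were listed but left unmatched, and count as not tested there. Fits were also run on simulated counts with the same spread for every gene and few changed genes, unlike these data. No result here rests on that run.

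The members and lists were chosen with earlier results of these data known. Named genes were all 10 factors and, per list, the 2 largest folds in each direction among genes called alike on Illumina and ONT, together with genes of at least 10 PacBio counts, nearest coding neighbours, coding genes within 500 kb and the 2 most alike genes. A few genes that this rule names are not reported here. Other named genes were chosen after their values were seen. Alternatives were DESeq2 1.42.0 and its size factors, limma-voom (limma 3.58.1), no filter, each replicate left out, a replicate block and summed PacBio pairs. Intervals cover counting error only, and folds against a floor leave out the counting error of the higher count.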

Additional observations from a re-analysis of the deposited data

How the results depend on the processing

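The number of factors called was 9 in Illumina and 7 in ONT under DESeq2 size factors, DESeq2, limma-voom and no filter. Leaving out 1 library gave 8 to 10 in Illumina, 7 in ONT, 0 in PacBio and 0 to 3 for the platform interaction. Without the low-count filter 1 factor was called in PacBio (TP63) and 2 in the interaction (FOXA1 0.79, TP63 0.80), and without HCC827 ONT replicate 3 the interaction called 3 (GATA6 0.83, SOX2 0.67, TP63 0.96). The causes were not tested. The interaction value of FOXA2 changed sign under DESeq2 size factors and under DESeq2, at -0.042 and -0.044. These size factors shifted the median of all genes in the interaction by -0.11. Leave-one-out values changed sign for differences that were not called: interaction values ran from -0.14 to 0.25 for FOXA2, -0.17 to 0.28 for CEBPA, -0.51 to 0.055 for FOXJ1 and -0.26 to 1.15 for FOXA1, and line differences from -0.026 to 0.27 for FOXJ1 on ONT, -0.14 to 0.0066 for XRN2 on ONT, -0.12 to 0.044 for MIPOL1 and -0.11 to 0.016 for DNAJC19 in Illumina. Over all genes, PacBio calls moved between 24 (without H1975 replicate 2) and 336 (without HCC827 replicate 3) around 206, with 971 unfiltered, 133 under DESeq2, 89 under limma-voom and 63 with close pairs summed, and interaction calls between 1300 (without H1975 Illumina replicate 1) and 3782 (without HCC827 ONT replicate 3) around 2105. Replicate numbers did not pair the lines (correlations of deviations from -0.54 to 0.24). With a replicate block 9 factors were called in Illumina, 7 in ONT and 0 in the interaction, and 50 genes in PacBio. PacBio depth left all 10 factors untested.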

Other observations

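PacBio counts were enough to describe several genes of the lung programmes although not the factors themselves. MUC5B had 88 counts over the HCC827 libraries and 0 over the H1975 libraries, 31.9-fold higher in HCC827 against a floor of 3 counts. The alveolar protease gene NAPSA had 15 and 0, 5.44-fold higher against that floor. Folds against the floor leave out the counting error of the HCC827 counts. LPCAT1, an enzyme of surfactant lipid synthesis, had 211 counts in HCC827 and 63 in H1975, a ratio of 3.64 with an exact 95% Clopper-Pearson interval from 2.74 to 4.91. ELF3, an epithelial ETS factor, had 55 counts in HCC827 and 12 in H1975, a ratio of 4.98 with an interval from 2.64 to 10.2. ITGB4, the hemidesmosome integrin of basal cells, had 30 counts in HCC827 and 68 in H1975, 2.08 times more in H1975 with an interval from 1.34 to 3.32, while its Illumina log2 fold of -0.17 ± 0.12 was not called (edgeR adjusted p = 0.213), although without HCC827 Illumina replicate 2 it was -0.30 ± 0.09 and called (edgeR adjusted p = 0.0125). On ONT it was 0.35 ± 0.21, of the opposite sign and not called (edgeR adjusted p = 0.161). The PacBio intervals cover counting error only and treat the close PacBio pairs as separate libraries. They also treat each clustered sequence as an independent count, and the part of clustering in these ratios was not tested.

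At the HOPX locus the nearest coding neighbours went opposite ways on the 2 platforms. THEGL was higher in HCC827 in Illumina (1.21 ± 0.37) and lower on ONT (-1.40 ± 0.32), with an interaction of -2.46 ± 0.50 (edgeR adjusted p = 0.00387). REST, a repressor of neuronal genes, was lower in Illumina (-0.34 ± 0.10) and higher on ONT (0.47 ± 0.13), with an interaction of 0.97 ± 0.16 (edgeR adjusted p = 0.000577). Without H1975 ONT replicate 1 its ONT fold was 0.44 and no longer called (edgeR adjusted p = 0.0532). The interaction of HOPX itself was -0.50 ± 0.36 (edgeR adjusted p = 0.483).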
